A study of Mus musculus with 20 samples.

Results

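The genes described here are 4 genes of glycine transmission (Slc6a5, Glra1, Glra3 and Glrb) and 4 Hox genes (Hoxa5, Hoxb3, Hoxb5 and Hoxc4), 8 of the 54532 genes in a count table of mouse brain. They were selected on their levels in the Glb1 knockouts, so the values of DKO and of Glb1KO set against WT are descriptions and carry no test. RNA-seq libraries had been made from brain of mice of 4 genotypes, 5 libraries per genotype and 20 in all, with RNA taken from a single hemisphere and selected for poly(A) tails. The groups were DKO, which lack Glb1 (lysosomal beta-galactosidase) and Neu3 (a membrane sialidase) together, Glb1KO, which lack Glb1 alone, Neu3KO, which lack Neu3 alone, and WT, which carry neither knockout. All libraries were labelled brain, and no label gave an age, a sex or a strain background. Nothing in the labels says that each library is a separate animal, and p-values measure the spread between libraries, which may in part be technical.

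Glycine is the fast inhibitory transmitter of brainstem and spinal cord, where it acts beside GABA. Neurons that release it take it back up through the transporter encoded by Slc6a5, and the receptors on their targets are chloride channels built of alpha subunits (Glra genes) and a beta subunit (Glrb). Hox genes encode transcription factors that give cells of the developing hindbrain and spinal cord their position along the body axis, and forebrain largely lacks their expression.

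Total counts per library ran between 15162311 and 25145806. The Glb1 level averaged 3.999 ± 1.07 CPM (read counts scaled to library size) in DKO, 3.38 ± 0.903 CPM in Glb1KO, 20.5 ± 1.34 CPM in Neu3KO and 20.2 ± 1.32 CPM in WT (SD, n = 5 each), which set DKO and Glb1KO apart from Neu3KO and WT as labelled. The Neu3 level averaged 2.98, 4.06, 2.86 and 3.85 CPM in the same order with overlapping ranges. No gene thus checked the labels that tell DKO from Glb1KO or Neu3KO from WT. The name of each library opens with a letter, E in all 5 WT libraries, E in 2 and W in 3 DKO libraries, E in 2 and L in 3 Glb1KO libraries, and E in 1 and W in 4 Neu3KO libraries. Its meaning was not given.

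Slc6a5, on chromosome 7 (49910146 to 49963856, plus strand, GRCm38; ENSMUSG00000039728), encodes the neuronal glycine transporter GlyT2 and defines glycine-releasing neurons. Its level was 22.4, 13.8, 20.6, 17.5 and 26.9 CPM in DKO replicates 1 to 5, 22.3, 8.99, 17.9, 19.6 and 22.1 CPM in Glb1KO, 48.5, 18.99, 8.31, 51.2 and 19.97 CPM in Neu3KO, and 44.9, 41.8, 68.5, 42.9 and 56.0 CPM in WT. All DKO and all Glb1KO libraries lay below the lowest WT library. Neu3KO split, with replicates 1 and 4 inside the WT range and replicates 2, 3 and 5 below it. Relative to WT the log2 fold change was -1.32 in DKO (SE 0.38) and -1.48 in Glb1KO (SE 0.39). In bulk tissue, fewer cells of a type and less RNA per cell cannot be told apart.

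Glra1, on chromosome 11 (55514238 to 55608198, minus strand; ENSMUSG00000000263), encodes the alpha 1 subunit of the adult glycine receptor. Its level was 9.06, 6.45, 7.50, 6.32 and 8.81 CPM in DKO, 7.42, 4.80, 8.19, 6.16 and 8.74 CPM in Glb1KO, 17.2, 6.54, 5.54, 16.4 and 8.27 CPM in Neu3KO, and 19.1, 13.99, 21.4, 13.9 and 18.2 CPM in WT. The libraries fell into the same order of groups as for Slc6a5, and again only replicates 1 and 4 of Neu3KO stood in the WT range. The log2 fold change relative to WT was -1.18 in DKO (SE 0.28) and -1.29 in Glb1KO (SE 0.28).

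**Figure D1:**
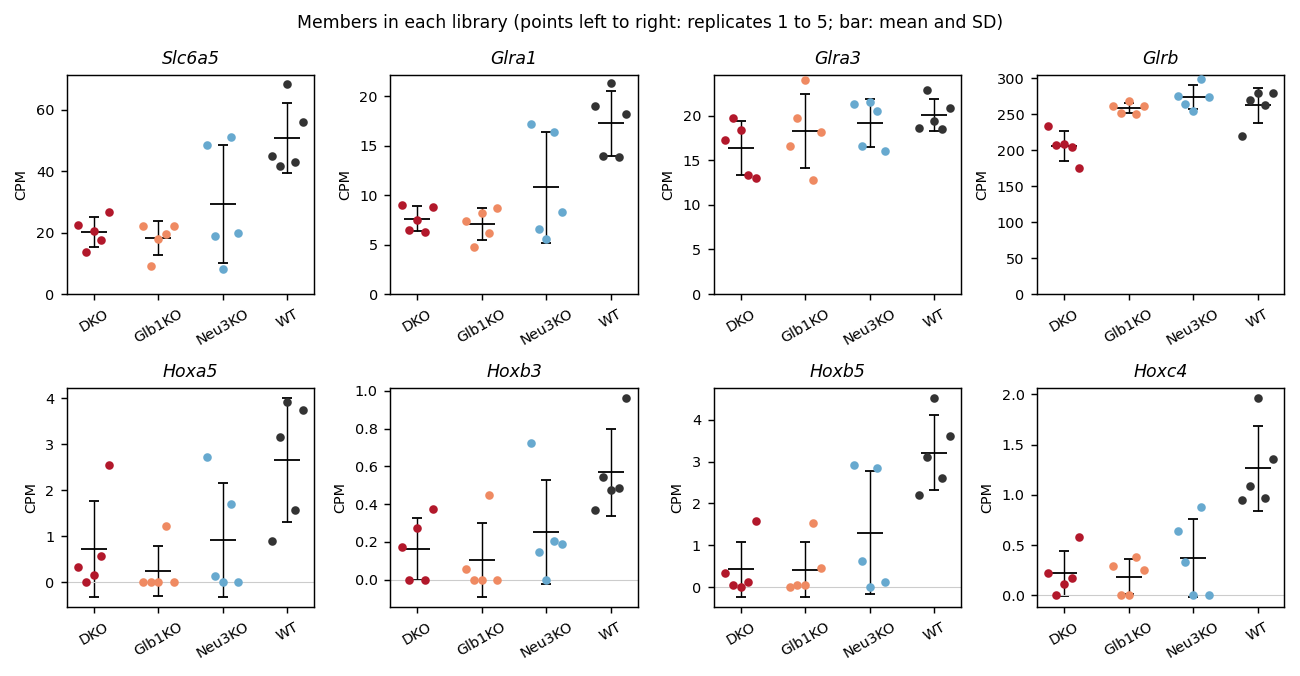
Level of each of the 8 genes in CPM (vertical axis, linear, its range set for each gene) in DKO, Glb1KO, Neu3KO and WT; each point is a library, replicates 1 to 5 run left to right, and the bar gives mean and SD. Slc6a5 and Glra1 are low in DKO and Glb1KO and split in Neu3KO, Glrb is low in DKO alone, and the Hox genes are near 0 in most knockout libraries.

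The promoter of Slc6a5 is shown because its level follows that of Hox genes across libraries, as described further on. It is the first of the gene's RefSeq starts, with 250 bases before and 50 after it, from GRCm38.p6 at chr7:49910049-49910348, plus strand. Capitals mark matches to TGATNNAT, a form of the joint Hox and PBX recognition sequence, which was searched on both strands.
Slc6a5: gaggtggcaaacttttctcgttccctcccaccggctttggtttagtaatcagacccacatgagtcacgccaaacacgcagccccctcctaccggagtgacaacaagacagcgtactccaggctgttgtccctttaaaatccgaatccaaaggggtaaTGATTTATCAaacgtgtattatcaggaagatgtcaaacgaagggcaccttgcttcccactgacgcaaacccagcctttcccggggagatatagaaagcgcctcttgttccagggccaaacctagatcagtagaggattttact
The capitals hold 2 matches, TGATTTAT on the plus strand and ATTTATCA read on the minus strand, which overlap. Of 32851 mouse promoters of this length, 2906 (8.85%) held at least 1 match. The second Slc6a5 start and the promoters of Glra3, Glrb, Hoxa5 and Hoxc4 held none, and 5 of the 8 genes had a promoter in the RefSeq table. A match describes the letters and is not a shown binding site.

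Glrb, on chromosome 3 (80843599 to 80913660, minus strand; ENSMUSG00000028020), encodes the beta subunit, which carries the contact to the scaffold protein gephyrin. Its level was 234, 208, 208, 204 and 175 CPM in DKO, 261, 252, 268, 251 and 261 CPM in Glb1KO, 276, 265, 255, 299 and 273.9 CPM in Neu3KO, and 220.4, 269.8, 279, 263 and 279.9 CPM in WT. DKO libraries were the low ones, 4 of 5 of them below every library of the other genotypes, and DKO replicate 1 lay above the lowest WT library alone. Glb1KO and Neu3KO lay within or above the WT range. The log2 fold change relative to WT was -0.35 in DKO (SE 0.06) and -0.02 in Glb1KO (SE 0.06), where Glra1 stood at -1.29.

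Glra3, on chromosome 8 (55940460 to 56130070, plus strand; ENSMUSG00000038257), encodes the alpha 3 subunit. Its level was 17.3, 19.7, 18.4, 13.4 and 13.0 CPM in DKO, 16.6, 19.8, 24.04, 12.8 and 18.1 CPM in Glb1KO, 21.2, 16.6, 21.6, 20.5 and 16.0 CPM in Neu3KO, and 18.6, 22.9, 19.4, 18.5 and 20.9 CPM in WT. The groups overlapped throughout, with DKO replicates 4 and 5 and Glb1KO replicate 4 lowest. Relative to WT the log2 fold change was -0.30 in DKO (SE 0.13) and -0.13 in Glb1KO (SE 0.13).

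Per transcript length the 4 glycine genes stood in a different order than their counts. In the authors' deposited FPKM (fragments scaled to gene length and library size), Glrb averaged 43.9 ± 4.47 in DKO, 55.2 ± 1.57 in Glb1KO, 58.3 ± 3.53 in Neu3KO and 55.9 ± 5.25 in WT (SD, n = 5 each), far above the other 3. Glra1 averaged 3.14, 2.90, 4.43 and 7.10 FPKM in the same order of groups, and Slc6a5 averaged 2.79, 2.51, 4.05 and 6.99 FPKM. Glra1 and Slc6a5 did not differ beyond their spread in any genotype, and Glra3 was lowest at 1.76, 1.97, 2.07 and 2.16 FPKM. In WT libraries, Glra1 stood above Glra3 in every library, and in DKO it did so by less, at 2.60 to 3.73 FPKM against 1.40 to 2.12 FPKM for Glra3.

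The 4 Hox genes were scarce in every library, and the counts behind them were small. Hoxb5, on chromosome 11 (96303336 to 96306121, plus strand; ENSMUSG00000038700), had 6, 1, 0, 2 and 30 reads in DKO, 0, 1, 1, 24 and 7 reads in Glb1KO, 73, 13, 0, 42 and 2 reads in Neu3KO, and 42, 57, 76, 43 and 64 reads in WT. In CPM these were at most 1.59 in DKO and 1.54 in Glb1KO, 0 to 2.93 in Neu3KO, and 2.21 to 4.53 in WT. All DKO and Glb1KO libraries were below the lowest WT library, as were Neu3KO replicates 2, 3 and 5, while Neu3KO replicates 1 and 4 stood inside the WT range. The log2 fold change relative to WT was -2.87 in DKO (SE 1.005) and -2.99 in Glb1KO (SE 1.03). Without DKO replicate 5, which held 30 of the 39 DKO reads, the DKO value was -4.57.

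Hoxc4, on chromosome 15 (103018934 to 103036852, plus strand; ENSMUSG00000075394), had 4, 0, 2, 3 and 11 reads in DKO, 5, 0, 0, 6 and 4 reads in Glb1KO, 16, 7, 0, 13 and 0 reads in Neu3KO, and 18, 20, 33, 16 and 24 reads in WT. In CPM every knockout library of all 3 genotypes was below the lowest WT library, with a highest value of 0.584 in DKO, 0.385 in Glb1KO and 0.882 in Neu3KO, against 0.948 to 1.97 in WT. The log2 fold change relative to WT was -2.47 in DKO (SE 0.69) and -2.78 in Glb1KO (SE 0.72).

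Hoxa5, on chromosome 6 (52201754 to 52204587, minus strand; ENSMUSG00000038253), had 6, 0, 3, 10 and 48 reads in DKO, 0, 0, 0, 19 and 0 reads in Glb1KO, 68, 3, 0, 25 and 0 reads in Neu3KO, and 17, 58, 66, 26 and 66 reads in WT. Its groups overlapped, because 1 library of DKO (replicate 5, 2.55 CPM) and 1 of Glb1KO (replicate 4, 1.22 CPM) reached the WT range of 0.895 to 3.93 CPM. The log2 fold change relative to WT was -1.84 in DKO (SE 1.07) and -3.51 in Glb1KO (SE 1.28). Hoxa5 overlaps Hoxa3 on the same strand, which had 95 reads in all against 415 for Hoxa5, and its reads are uncertain to that extent.

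Hoxb3, on chromosome 11 (96323326 to 96347930, plus strand; ENSMUSG00000048763), had 3, 0, 5, 0 and 7 reads in DKO, 1, 0, 0, 7 and 0 reads in Glb1KO, 18, 3, 0, 3 and 3 reads in Neu3KO, and 7, 10, 8, 8 and 17 reads in WT. With 100 reads in all it did not pass the filter on low counts, and 7 of the 8 genes were tested. Its antisense neighbours Gm11536 and Hoxb3os had 54 and 26 reads, and the strand setting of the counting was not given, so their reads cannot be told apart from those of Hoxb3. In a library with no read, up to 3 reads are allowed by counting error, or 0.120 to 0.203 CPM depending on the library. Fitted without that filter, Hoxb3 stood at -1.72 in DKO (SE 0.66) and -2.47 in Glb1KO (SE 0.72) relative to WT. In the authors' deposited table of DKO against WT, Hoxb3 stood at log2 -1.77.

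The promoters of Hoxa5 and Hoxc4 are shown because, of the 4 Hox genes, these had a promoter in the RefSeq set used. They also hold the longest run of letters common to any pair of these promoters. They lie at chr6:52204538-52204837 (minus strand) and chr15:103034145-103034444 (plus strand) of GRCm38.p6, and capitals mark the shared run of 12 bases.
Hoxa5: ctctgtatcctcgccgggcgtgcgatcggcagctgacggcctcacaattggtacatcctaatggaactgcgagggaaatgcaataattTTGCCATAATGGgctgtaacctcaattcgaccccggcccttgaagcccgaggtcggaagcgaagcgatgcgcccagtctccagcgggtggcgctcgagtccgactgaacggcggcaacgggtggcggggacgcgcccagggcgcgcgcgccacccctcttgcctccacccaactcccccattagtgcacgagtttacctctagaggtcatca
Hoxc4: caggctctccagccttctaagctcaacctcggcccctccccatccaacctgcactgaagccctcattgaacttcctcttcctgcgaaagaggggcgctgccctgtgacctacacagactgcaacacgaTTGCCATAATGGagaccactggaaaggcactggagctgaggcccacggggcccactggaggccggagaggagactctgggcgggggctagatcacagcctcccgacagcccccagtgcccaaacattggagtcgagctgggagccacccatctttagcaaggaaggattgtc
The shared run TTGCCATAATGG begins 162 bases before the start of Hoxa5 and 122 bases before that of Hoxc4. On either strand it was in 2 of the 32851 promoters (0.00609%), these 2. The next longest run in any pair was 9 bases, between Glrb and Hoxa5, and it was in 201 promoters. These windows were compared after the levels were seen, and the comparison describes sequence alone.

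By edgeR's quasi-likelihood test fitted on all 18336 tested genes, 5 of the 7 tested genes were called lower at an adjusted p under 0.05 in DKO against WT (Slc6a5, Glra1, Glrb, Hoxb5 and Hoxc4), where 15.1% of all tested genes were called lower and 14% higher. In Glb1KO against WT 3 of the 7 were called lower (Slc6a5, Glra1 and Hoxc4), where 2.21% of all tested genes were. Every DKO library was below every WT library for 4 of the 7 (Slc6a5, Glra1, Hoxb5 and Hoxc4) against 9.35% of all genes, and every Glb1KO library for the same 4 against 2.96%. These genes had been chosen on such values, so nothing is read from these counts. Leaving out 1 library gave 1 to 3 calls in Glb1KO, and 551 to 824 over all tested genes. Of the 7 genes, 1 was left without WT replicate 3 or 5 or Glb1KO replicate 2 or 3. The library letter as a term left 0 in Glb1KO and 1 in DKO. Calls over all tested genes also dropped with the letter, to 315 against 726 in Glb1KO and to 3363 against 5323 in DKO. With it Slc6a5 stood at -1.28 in Glb1KO and -1.11 in DKO, Glra1 at -1.21 and -0.90, and Hoxc4 at -1.96 and -2.38. Among libraries whose names begin with E, Slc6a5 stood at -1.47 in DKO and -1.28 in Glb1KO, and Glra1 at -1.14 and -1.21. The median log2 fold change over the 7 tested genes was -1.32 in DKO and -1.48 in Glb1KO, beside -0.00 and 0.00 over all tested genes.

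Neu3KO against WT was the comparison that held no library of a Glb1 knockout. It shares its WT libraries with the comparisons on which the genes were chosen. WT levels high by chance would therefore make its values lower too, and it is no independent test of these genes. In Neu3KO against WT, edgeR's quasi-likelihood test called none of the 7 genes, and 2 (Glra1 and Hoxc4) had an unadjusted p under 0.05. No gene of the 18336 was called lower there (0%), DESeq2 called none of the 7, and 1105 genes had an unadjusted p under 0.05. By edgeR the log2 fold changes relative to WT were -0.78 for Slc6a5 (SE 0.37, adjusted p = 0.823), -0.68 for Glra1 (SE 0.27, adjusted p = 0.773), -1.72 for Hoxc4 (SE 0.64, adjusted p = 0.767), -1.27 for Hoxb5 (SE 0.87) and -1.47 for Hoxa5 (SE 1.03). Glra3 stood at -0.06 (SE 0.13) and Glrb at 0.06 (SE 0.06). Hoxc4 was the 1 gene of the 7 with every Neu3KO library below every WT library, as 0.66% of all tested genes were.

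Glrb was lower in DKO than in either single knockout. These comparisons hold the DKO and Glb1KO libraries on which the genes were chosen, so their values too are descriptions. Relative to Glb1KO its log2 fold change was -0.33 (SE 0.06), and relative to Neu3KO it was -0.41 (SE 0.06). In both comparisons each of the 5 DKO libraries was below all 5 libraries of the single knockout, as 5.25% of all tested genes were against Glb1KO and 7.2% against Neu3KO. Glrb was the 1 called gene of the 7 in each, where 7.29% and 12.8% of all tested genes were called lower. Its interaction, the DKO change beyond the sum of the changes in both single knockouts, was -0.39 (SE 0.09), and 2.88% of all tested genes had an interaction called lower. Among libraries whose names begin with E, of which DKO and Glb1KO had 2 each and Neu3KO 1, these differences stood at -0.20, -0.31 and -0.28 and were not called. With the library letter as a term, the difference from Glb1KO was -0.25 and no longer called.

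For the other 6 tested genes the DKO and Glb1KO levels did not separate. Slc6a5 in DKO relative to Glb1KO had a log2 fold change of 0.16 (SE 0.40) and Glra1 of 0.11 (SE 0.29), while Glra3 was at -0.17 (SE 0.13). The Hox genes had wide errors, with Hoxb5 at 0.12 (SE 1.24), Hoxc4 at 0.31 (SE 0.89) and Hoxa5 at 1.67 (SE 1.42). Differences within these errors were not detectable with 5 libraries per genotype and, for the Hox genes, with so few reads.

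**Figure D2:**
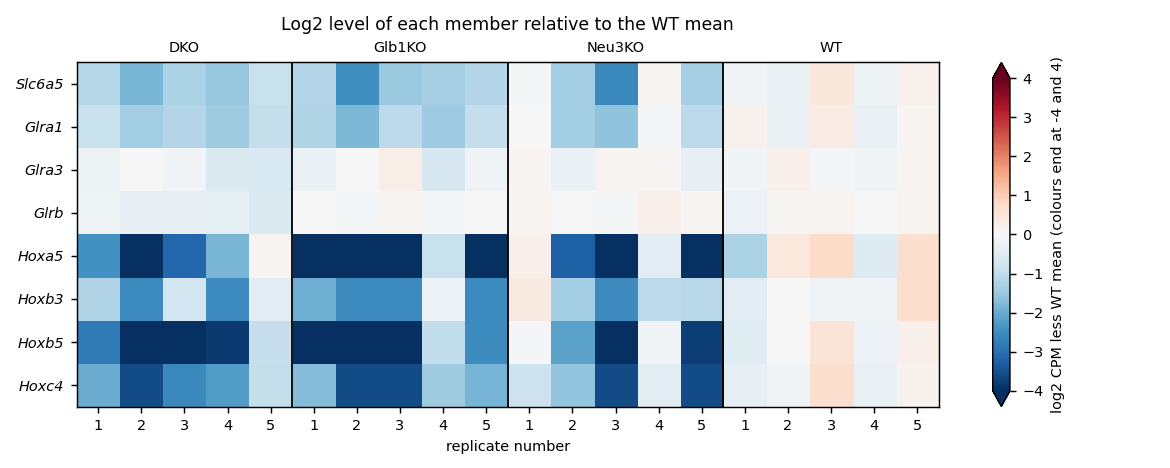
Log2 CPM of the 8 genes (rows) less their WT mean in each of the 20 libraries (columns, grouped as DKO, Glb1KO, Neu3KO and WT and numbered by replicate); blue is lower than WT, red higher, and the colour scale ends at -4 and 4. Neu3KO replicates 1 and 4 are the palest of their genotype for Slc6a5, Glra1 and the 4 Hox genes. Hoxc4 in both, and Hoxb3 in replicate 4, are still below every WT library. Neu3KO replicate 3 has the darkest column of its genotype. DKO replicate 5 and Glb1KO replicate 4 are the palest of their genotypes for all 4 Hox genes.

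Libraries of a single genotype differed more in Slc6a5, Glra1 and the 3 tested Hox genes than in most genes, and less in Glrb. The biological coefficient of variation estimated from the fit was 41.8% for Slc6a5, 29.5% for Glra1, 14.002% for Glra3 and 7.31% for Glrb, and 180% for Hoxa5, 134% for Hoxb5 and 66.4% for Hoxc4, beside a median of 11.0% over all tested genes. Slc6a5 had a more variable level than 98.3% of genes, and Glrb than 20.3%.

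Slc6a5 varied with Glra1, and also with the 4 Hox genes, between libraries of the same genotype. With genotype means taken off the log2 CPM, Slc6a5 and Glra1 correlated over 20 libraries at Pearson r = 0.918 and Spearman rho = 0.889 (permutation within genotypes, p = 4e-05 and 7e-05, adjusted over 28 pairs 0.00112 each). Without the 2 libraries farthest from the median of Slc6a5, r was 0.903, and without Neu3KO, whose libraries split into high and low ones, it was 0.830 (n = 15). Among libraries of the same letter and genotype it was 0.830 for E (n = 9) and 0.948 for W (n = 7), and L had 3 libraries, too few for a value. The Slc6a5 reads per Glra1 read had medians of 2.74 in DKO, 2.53 in Glb1KO, 2.83 in Neu3KO and 3.08 in WT, with overlapping ranges, so this ratio differed little between groups while both levels were over 2 times higher in WT than in DKO or Glb1KO.

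Slc6a5 went with the Hox genes too. Its r was 0.819 with Hoxc4 (rho = 0.846, permutation p = 1.6e-04 and 9e-05, adjusted 0.00149 and 0.00112) and 0.791 without the 2 farthest libraries. Without Neu3KO it was 0.801 with Hoxc4 but 0.458 with Hoxb5 and 0.461 with Hoxa5, where the values over all 20 libraries were 0.729 (rho = 0.663, permutation adjusted p = 0.0225 and 0.0387) and 0.693 (rho = 0.700, permutation adjusted p = 0.0257 and 0.0231). The links with Hoxb5 and Hoxa5 thus rested in part on the split of Neu3KO. Among E libraries they were 0.875 for Hoxc4, 0.566 for Hoxb5 and 0.385 for Hoxa5 (n = 9), and among W libraries 0.805, 0.823 and 0.790 (n = 7). The pair Hoxa5 and Hoxb5, from different clusters on different chromosomes, was at 0.889 (rho = 0.822, permutation adjusted p = 0.00149 and 0.00112; 0.832 without Neu3KO). Of the 28 pairs, 11 passed the adjusted threshold for Pearson's r, namely Slc6a5 with Glra1 and with each of the 4 Hox genes, and the 6 pairs among the Hox genes. By Spearman's rho, Hoxb3 with Hoxb5 and with Hoxc4 did not pass (permutation adjusted p = 0.0873 and 0.0522). Hoxb3 had only 100 reads, and its r of 0.625 with Slc6a5 was 0.484 without Neu3KO and 0.245 among E libraries. No pair of Glra1 with a Hox gene passed the threshold for Pearson's r, with r of 0.643 for Hoxc4, 0.612 for Hoxb5, 0.550 for Hoxa5 and 0.459 for Hoxb3 (permutation adjusted p = 0.0837, 0.0841, 0.135 and 0.144). Without Neu3KO these were 0.458, 0.251, 0.0836 and 0.156.

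No pair with Glrb or Glra3 passed the threshold. Glrb correlated with Slc6a5 at r = 0.317 (rho = 0.402, permutation p = 0.114 and 0.101, adjusted 0.188 and 0.166) and Glra3 with Slc6a5 at r = -0.128 (rho = -0.173, permutation p = 0.608 and 0.487).

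**Figure D3:**
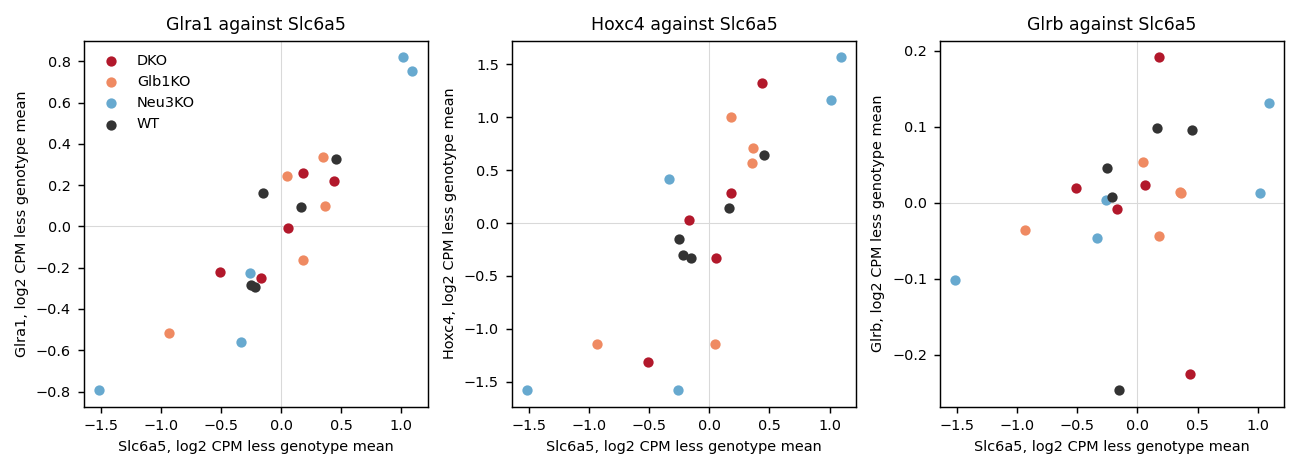
Glra1, Hoxc4 and Glrb (vertical axes) against Slc6a5 (horizontal axes), as log2 CPM with the mean of each genotype taken off; each point is a library, coloured DKO, Glb1KO, Neu3KO or WT. Glra1 and Hoxc4 follow Slc6a5 with r of 0.918 and 0.819, and Glrb does so at 0.317.

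Other genes with the pattern of Slc6a5 within genotypes were sought among 15950 genes with a mean of at least 1 CPM, by Pearson r over the 20 libraries. The 10 nearest were Nefh (0.880), Nefm (0.813), Rassf4 (0.810), Plekha3 (0.800), Ubash3b (0.782), Chrm2 (0.767), Bag3 (0.764), Phlpp1 (0.757), Sv2c (0.756) and Cabp7 (0.755). Nefh and Nefm encode the heavy and medium neurofilament chains of large axons, and Chrm2 encodes a muscarinic acetylcholine receptor. For Hoxb5, the most abundant Hox gene of the 4, genes among the 10 nearest were Phlpp1 (0.760), Plekha3 (0.749), Ncoa5 (0.746), Btbd9 (0.742), Zfp36l2 (0.733), Gata2 (0.728), Dexi (0.726), Cab39 (0.722) and Pja1 (0.718). Phlpp1 and Plekha3 were on both lists. These are the extremes of many correlations and carry no p-value, and by Spearman's rho 6 of the 10 genes like Slc6a5 ranked among the first 24.

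Lists of genes that mark brain regions were set beside these genes. They were drawn up with results of these data known. The other 35 Hox genes of the mouse (36 rows, Hoxd4 having 2) summed to 1.37, 1.18, 0.767, 1.03 and 4.99 CPM in DKO replicates 1 to 5, 0.759, 0.480, 0.536, 4.30 and 0.447 CPM in Glb1KO, 8.94, 1.39, 0.413, 4.88 and 1.53 CPM in Neu3KO, and 4.84, 6.91, 9.53, 5.65 and 10.8 CPM in WT. The same libraries were high and low as for the 4 Hox genes, with DKO replicate 5, Glb1KO replicate 4 and Neu3KO replicates 1 and 4 near or in the WT range. Of these genes 3 passed the low-count filter (Hoxa4, Hoxb4 and Hoxb6), and Hoxb6 alone was called lower in DKO against WT (-3.16, SE 1.05), none in Glb1KO.

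A list of 15 hindbrain and spinal neuron genes without Hox genes, of which 13 were tested, gave a score per library, the mean log2 CPM less the WT mean. The score was 0.01, -0.56, -0.52, -0.69 and -1.54 in DKO, -0.53, -0.82, -0.66, -1.59 and -0.46 in Glb1KO, 0.05, -0.38, -1.12, 0.25 and -0.85 in Neu3KO, and -0.22, 0.34, 0.24, -0.32 and -0.04 in WT. The lowest values were those of DKO replicate 5 and Glb1KO replicate 4, the libraries of their genotypes with the most Hox reads. The median log2 fold change of the 13 was -0.47 in DKO and -0.80 in Glb1KO. In DKO against WT 2 of the 13 were called lower, a share near the 15.1% of all tested genes. These were the serotonin neuron factor Fev (-1.93, SE 0.70) and the motor neuron factor Lhx4 (-1.85, SE 0.57). Both were scarce, at 0.183 and 0.201 CPM in DKO against 0.706 and 0.742 CPM in WT. In DKO they were thus near the counting floor of 0.120 to 0.203 CPM. None of the 13 was called in Glb1KO, where Tph2, the serotonin-making enzyme of raphe neurons, stood at -1.23 (SE 0.68). In DKO against WT Tph2 stood at -0.02 (SE 0.63).

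Most other region lists had no call in Glb1KO against WT. No gene was called there among 12 cerebellar, 14 forebrain, 8 thalamic, 11 hypothalamic and midbrain, 5 olfactory bulb, 6 choroid plexus and 2 pituitary genes tested. In DKO against WT, 4 of 12 cerebellar genes were called lower, and 8 of the 12 had a negative log2 fold change. The called genes were the Purkinje cell genes Car8 (-1.29, SE 0.25), Pcp2 (-1.02) and Slc1a6 (-0.90) and the granule cell gene Zic1 (-0.42). Cbln3 of the same list stood at 0.35 (SE 0.17) and was not called. The thalamus list had 6 of 8 genes lower, Ntng1 (-0.61, SE 0.10) with the smallest p of them. The forebrain list had 4 of its 14 genes lower, with Neurod6, Lhx2 and Tbr1 at -0.37 to -0.28, and Ppp1r1b higher (0.45). Over all tested genes, 15.1% were called lower and 14% higher in DKO against WT. The other 4 lists had no call in DKO. Pituitary genes summed to 130.1 CPM in Neu3KO replicate 2 and to at most 18.1 CPM elsewhere. All 11 myelin genes were called lower in DKO and in Glb1KO, where 15.1% and 2.21% of all tested genes were. None was called in Neu3KO, where 0% of all tested genes were called lower. The median log2 fold change of the myelin genes was -0.94 in DKO and -0.90 in Glb1KO. The split of Neu3KO seen in Slc6a5 and Glra1 was not seen in myelin, where Neu3KO scores ran between -0.13 and 0.08. The part of these lists in the levels of Slc6a5 and Glra1 was not tested.

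**Figure D4:**
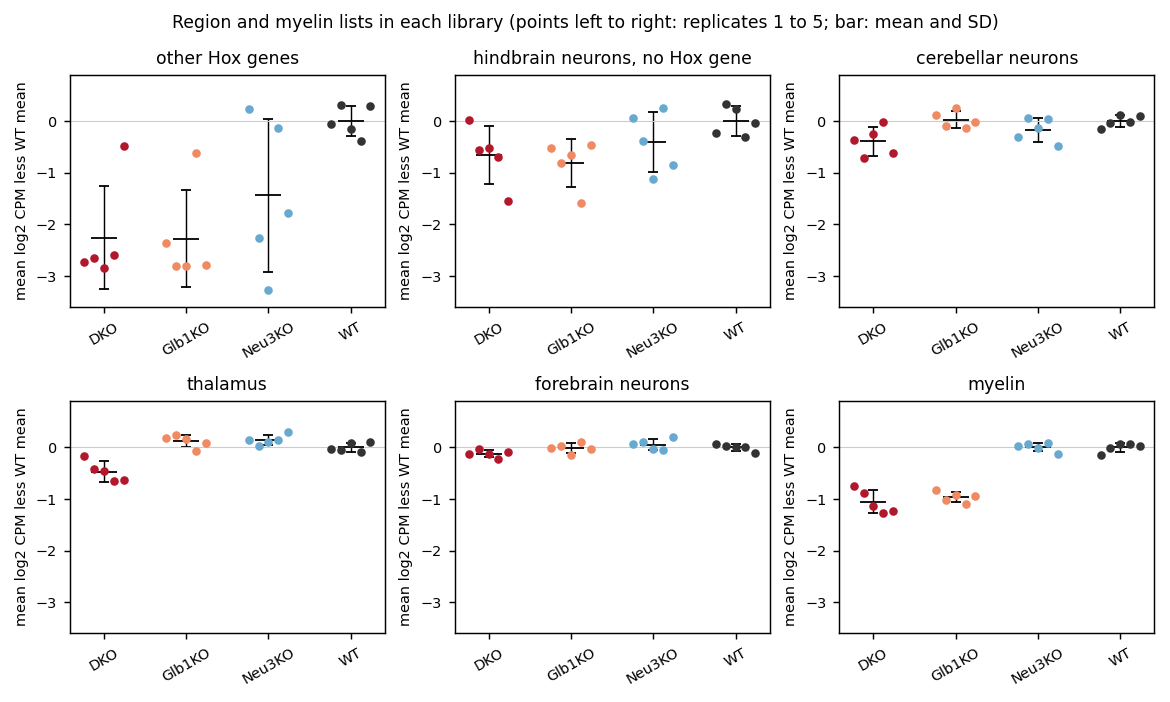
Scores of 6 gene lists (mean log2 CPM less the WT mean, same vertical scale in each panel) per library in DKO, Glb1KO, Neu3KO and WT; replicates 1 to 5 run left to right and the bar gives mean and SD. The other Hox genes split Neu3KO and set DKO replicate 5 and Glb1KO replicate 4 apart, the hindbrain neurons show those 2 libraries lowest, and myelin is low in every DKO and Glb1KO library.

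Of 13 other genes of glycine handling tested, 4 were called lower and 1 higher in DKO against WT, where 15.1% and 14% of all tested genes were. In Glb1KO against WT 1 was called lower, where 2.21% of all tested genes were. Slc6a9, the glial glycine transporter GlyT1, was lower in DKO (-0.65, SE 0.08) and in Glb1KO (-0.35, SE 0.08), at 35.7 CPM in DKO, 43.8 CPM in Glb1KO, 50.7 CPM in Neu3KO and 56.1 CPM in WT. Gphn, the scaffold gephyrin, was lower in DKO (-0.27, SE 0.06), as was Slc32a1, which loads glycine and GABA into vesicles (-0.25, SE 0.05), and Slc7a10, a small amino acid transporter of astrocytes (-0.49, SE 0.11). Gcsh, of the glycine cleavage system, was higher in DKO (0.40, SE 0.08). The median over the 13 was -0.06 in DKO and 0.00 in Glb1KO.

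The fit was repeated with scores of hindbrain neuron genes and Hox genes as a further term. With the mean score of the hindbrain neuron list and the tested other Hox genes as a term, Slc6a5 stood at -0.28 in DKO (SE 0.37) and -0.34 in Glb1KO (SE 0.38), and Glra1 at -0.41 (SE 0.22) and -0.44 (SE 0.23). None of the 7 genes was then called in either comparison with WT. Calls over all tested genes also dropped with this term, to 2886 against 5323 in DKO and to 225 against 726 in Glb1KO. The joint score holds Hox genes, so the 3 tested Hox genes were adjusted by genes of their own family. DKO replicate 5 and Glb1KO replicate 4, with the most Hox reads of their genotypes, had the lowest joint scores of their genotypes. These scores were -0.68 and -0.75, less the mean of all libraries. How far the score follows the amount of hindbrain tissue was not tested. With the score of the hindbrain neuron list alone, Slc6a5 kept -0.93 in DKO (SE 0.42) and -1.04 in Glb1KO (SE 0.43), and Glra1 -0.84 and -0.90. The term and the genotype share variation, since most DKO and Glb1KO libraries are low in these scores, and the share of tissue and the effect of genotype cannot be told apart by it.

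Glrb in DKO against WT was at -0.20 (SE 0.07) with the joint score as a term, no longer called, and at -0.34 with the summed level of the other Hox genes as a term. Its interaction was -0.51 with the joint score as a term, and its difference between DKO and Glb1KO was -0.35.

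**Figure D5:**
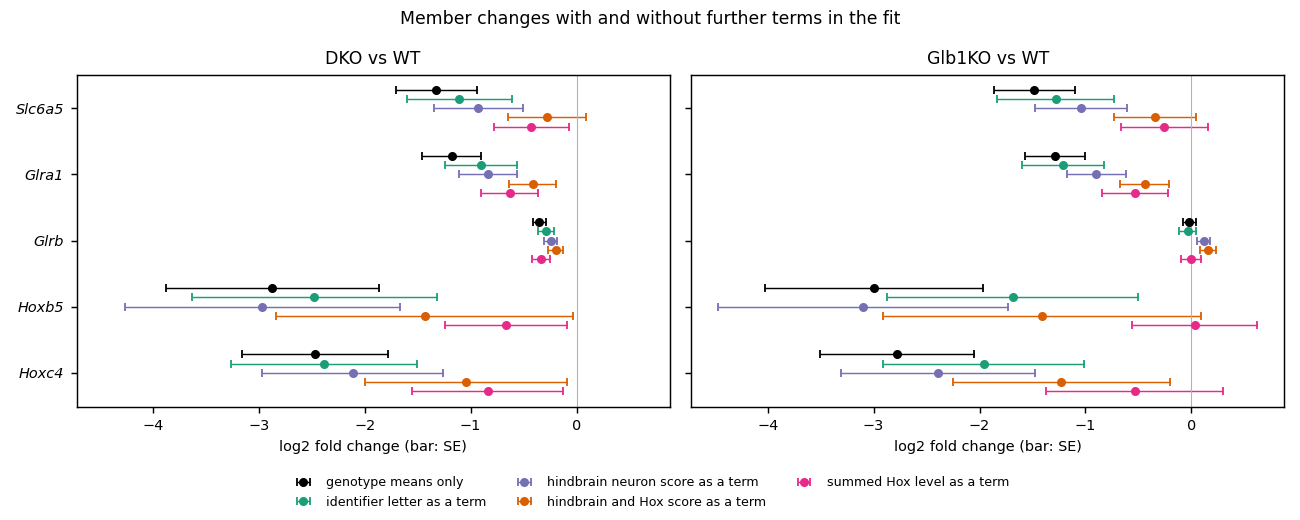
Log2 fold change (horizontal axis, bar: SE) of Slc6a5, Glra1, Glrb, Hoxb5 and Hoxc4 in DKO against WT (left) and Glb1KO against WT (right), with genotype means alone and with the library letter or a hindbrain or Hox score as a further term. The changes of Slc6a5 in DKO run between -1.32 with genotype means alone and -0.28 with the joint score, and those of Glrb between -0.35 and -0.20.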

How the data were processed

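Unnormalized counts of reads by gene and library, and FPKM values for the same libraries, were deposited by the authors. Their own comparison of DKO with WT gives log2 fold changes and p-values, per the file headers. The submitters' processing notes list the mouse builds GRCm38 and mm10 and, as tools, DESeq2 1.20.0, featureCounts 1.5.0-p3, HISAT2 2.0.5 and fastp, with no roles, strand setting or filters, so reads shared between overlapping or antisense genes could not be assigned.

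Counts were tested with edgeR 4.0.16 in R 4.3.3 (limma 3.58.1 beneath it), using TMM scaling, its filter on low counts, a mean per genotype over all 20 libraries, a robust quasi-likelihood F test and Benjamini-Hochberg adjustment over 18336 genes at 0.05. CPM values are TMM-scaled, log2 CPM used a prior count of 2, and the correlations used 100000 permutations within genotypes. DESeq2 1.42.0, other scaling and filters, a replicate block, the library letter, region scores and the removal of each library were alternatives. The summed Hox level as a term and the correlations without libraries were chosen after seeing the data. The script was tested on simulated data. Floors and intervals cover counting error only.

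The 8 genes and the lists of region markers were chosen with earlier results of these data known. All 8 genes are named. From each list the text names members with the smallest p or the highest level, and others that were called, these last chosen after their values were seen. The genes like Slc6a5 and Hoxb5 are the 10 with the highest r. A few genes that these rules name are not reported here. Promoter sequences are RefSeq's for GRCm38.p6.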

Additional observations from a re-analysis of the deposited data

Results flagged for a closer look

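In 32 groups of 5 libraries, 4 for each of the 8 genes, 6 held a library far from its neighbours by Dixon's 95% criterion. Chance alone meets it in about 1 of 20 groups of normally distributed values. Hox values with many zeros are not distributed so, and the same libraries recur over genes that vary together. No excess is therefore read from the 6. DKO replicate 5 stood apart for Hoxa5 at 2.55 CPM (next 0.575) and for Hoxb5 at 1.59 CPM (next 0.342). Glb1KO replicate 4 stood apart for Hoxa5 at 1.22 CPM, with 0 reads in the other 4 libraries, and for Hoxb3 at 0.449 CPM (next 0.0584). Neu3KO replicate 1 stood apart for Hoxb3 at 0.722 CPM (next 0.203). WT replicate 1 was low for Glrb at 220.4 CPM (next 263). These Hox values rest on 7 to 48 reads each.

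The interaction of both knockouts on Glrb was -0.39 on the log2 scale and passed edgeR's threshold over all 20 libraries. It is built in part from the DKO and Glb1KO libraries on which the genes were chosen, so it is no independent test, and among libraries whose names begin with E it was -0.28 and did not pass.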

How the results depend on the processing

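With the library letter as a term, called genes numbered 1 in DKO against WT, 0 in Glb1KO against WT and 0 in DKO against Glb1KO, where Glrb stood at -0.25. Over all tested genes the letter left 3363, 315 and 1203 calls, against 5323, 726 and 2879 without it, and Slc6a5 stood at -1.11 in DKO and -1.28 in Glb1KO, against -1.32 and -1.48. The joint hindbrain and Hox score left 0 in both comparisons with WT (2886 in DKO and 225 in Glb1KO over all tested genes). The hindbrain neuron score left 2 in DKO and 0 in Glb1KO (4322 and 500 over all tested genes). The summed Hox level left 1 and 0 (3263 and 205 over all tested genes) and gave 2 in DKO against Neu3KO (Glrb and Hoxa5). With that term Hoxa5 stood at 1.37 in DKO and -0.08 in Neu3KO relative to WT. Its call against Neu3KO was thus toward higher in DKO, where it stood at -0.37 without the term. Libraries whose names begin with E included 1 Neu3KO library and 2 each of DKO and Glb1KO, and calls from that fit are not counted here. A minimum of 10 reads in every library left the 4 glycine genes alone and 3 calls in DKO against WT (5011 over all tested genes). Causes of these shifts were not tested.

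Leaving out 1 library gave 4 to 5 calls in DKO against WT and 1 to 3 in Glb1KO against WT. In Glb1KO 1 was left without WT replicate 3 or 5 or without Glb1KO replicate 2 or 3. Over all tested genes these fits gave 4448 to 5356 calls in DKO and 551 to 824 in Glb1KO. The Glb1KO call of Slc6a5 was lost in 9 of 10 such fits (kept without WT replicate 2), that of Hoxc4 in 4, and the DKO call of Hoxb5 in 8, while Glra1, Glrb, and in DKO Slc6a5 and Hoxc4, lost none. Over the single-gene values of other settings, beside those that leave out a library, 427 kept their side of the threshold, 39 lost and 7 gained a call. No value called with genotype means alone changed sign. Values not called there could do so, as that of Hoxa5 did with the summed Hox level. The fit of the compared groups alone gives no interaction. In it the SE of Slc6a5 relative to WT was 0.19 in DKO and 0.25 in Glb1KO, against 0.38 and 0.39 over all 20 libraries.

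With the replicate number as a replicate block the calls were 6, 3 and 0 in DKO, Glb1KO and Neu3KO against WT, and Glra3 passed in DKO at -0.31. Over all tested genes the calls with this block were 5207, 685 and 0. Same-numbered libraries did not deviate together (correlations of -0.13 to 0.06), so the numbers do not pair libraries. Hox genes, at 0 to 76 reads per library, limit what depth can show.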
